A study of Mus musculus with 36 samples.

Results

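The comparison described here set bone marrow-derived macrophages of N4bp1 KO mice against those of WT mice after 7 h of R837, without actinomycin D. Its members are 6 of the 36 libraries of the series, 3 from N4bp1 KO and 3 from WT, taken by their genotype and treatment labels, and all genes past a filter on low counts were tested. The KO group carries the label N4bp1 KO and +R837 7h; the WT group carries the wild-type label and the same treatment. The other 30 libraries hold the same genotypes at 3 h of R837 and after actinomycin D, a transcription blocker. All cells were grown from mouse bone marrow with M-CSF, the growth factor that turns marrow progenitors into macrophages, and the labels describe macrophages of 3 individual mice as independent replicates. The protocol names C57BL/6N wild-type mice; the labels used here do not give the KO allele, the strain of the KO mice, the dose of R837, or the age and sex of the animals. They also do not say whether the same mice served both times. No unstimulated cells were analysed here, so the values compare genotypes within stimulated cells and not stimulated with resting cells.

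R837, imiquimod, is a small-molecule ligand of TLR7, an endosomal Toll-like receptor for single-stranded RNA that signals through MyD88, IRAK kinases and TRAF6 to NF-kappaB and MAP kinases. In macrophages this signalling switches on cytokine, chemokine and enzyme genes together with the inhibitors that end the response. N4BP1 is an RNA-binding protein with an NYN ribonuclease domain that is known to restrain inflammatory output and to be cleaved by caspase-8. The series title names crosstalk within the IkappaB kinase family and an axis of N4BP1 and caspase-8 as the subject.

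N4bp1 itself (chromosome 8, 86808160 to 86885258, minus strand) had 145, 141 and 143 CPM in the KO libraries and 171, 182 and 169.8 CPM in the WT libraries. Its KO libraries all lay below its WT libraries, and the log2 fold change was -0.28 ± 0.07, a small fall whose adjusted p was 0.0027. Scaled to ribosomal and elongation genes it had the same size and did not pass, with an adjusted p of 0.0803, and since the allele is not given, it cannot be said which exons the remaining reads should cover, and this level does not check the genotype label. The 3 KO libraries held between 24937073 and 30017283 counts and the 3 WT libraries between 28754047 and 32494987 counts. Levels are given as CPM, each library's counts scaled to a common total by the TMM method, errors of CPM are SD over n = 3 libraries, and errors of log2 fold changes are standard errors; gene positions are from GENCODE M21 on GRCm38. The 12 pan-macrophage markers, of which 3 rose and 3 fell in KO, summed to between 44800 and 45300 CPM in KO libraries and between 46000 and 46600 CPM in WT libraries. Markers of other cells were far lower. Neutrophil markers, of which 2 of 13 rose, summed to between 894 and 935 CPM in KO and between 604 and 625 CPM in WT, with S100a8 at 549.8 ± 13.4 CPM in KO against 292 ± 11.1 CPM in WT and Ly6g, a defining surface marker, at 0.0670 ± 0.0512 CPM in KO against 0.0509 ± 0.0622 CPM in WT. B and plasma cell markers, of which 6 of 12 rose, summed to between 638 and 656 CPM in KO and between 365 and 380 CPM in WT, and Sdc1, which macrophages also make, gave 315 ± 8.31 CPM in KO against 156 ± 2.73 CPM in WT of that. Immunoglobulin transcripts were a smaller share, with Igha at 21.1 ± 0.916 CPM in KO against 4.36 ± 0.750 CPM in WT and Igkc at 66.9 ± 3.42 CPM in KO against 26.4 ± 2.04 CPM in WT, while Cd79a, which defines B cells, was at 0.264 ± 0.130 CPM in KO against 0.281 ± 0.0847 CPM in WT. Fibroblast and stromal markers, of which 8 of 12 rose, summed to between 54.3 and 61.3 CPM in KO and between 30.2 and 32.8 CPM in WT. Dendritic cell markers summed to between 39.0 and 40.2 CPM in KO and between 23.8 and 25.2 CPM in WT. Of the 7 dendritic cell markers tested, 2 rose and 2 fell, with a median of -0.32 log2, so the sum does not speak for each member. T and NK cell markers, of which 2 rose and 1 fell of 6 tested, summed to at most 24.8 CPM in KO and 23.9 CPM in WT. Osteoclast markers, of which 3 rose and 1 fell of 7 tested, summed to between 359 and 363 CPM in KO and between 236 and 244 CPM in WT. Mast cell markers summed to at most 9.75 CPM and erythroid markers to at most 0.819 CPM in all 6 libraries, with Tpsab1, Tpsb2, Cma1, Hba-a2 and Alas2 at 0. Their part in the results below was not tested, and in bulk samples fewer cells of a type and less RNA per cell cannot be told apart.

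KO macrophages differed from WT macrophages over a large part of the transcriptome, with secreted inflammatory mediators among the largest rises. Of 13748 genes tested, 4201 (30.6%) passed edgeR's quasi-likelihood test at a Benjamini-Hochberg adjusted p below 0.05: 2126 (15.5%) rose in KO and 2075 (15.1%) fell. The counts of list members below are to be read beside these shares. At least 2-fold, 412 genes (3.00%) rose and 298 (2.17%) fell, and 24 rose and 5 fell by 8-fold or more. The median log2 fold change over all genes tested was -0.01, and 49.0% of genes lay above 0. The KO and WT libraries did not overlap at 3607 genes (26.2%) with KO above and at 3573 genes (26.0%) with KO below. Genes that rose at least 2-fold held between 5.44% and 5.59% of the counts in KO libraries and between 1.97% and 2.04% in WT libraries. Genes that fell at least 2-fold held between 0.344% and 0.356% in KO and between 0.903% and 0.945% in WT. These shares over called genes are a description, since the same values chose the genes. Saa3, an acute-phase serum amyloid gene, took the most counts of any gene in each KO library, and Ctsb, cathepsin B, in each WT library.

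**Figure D1:**
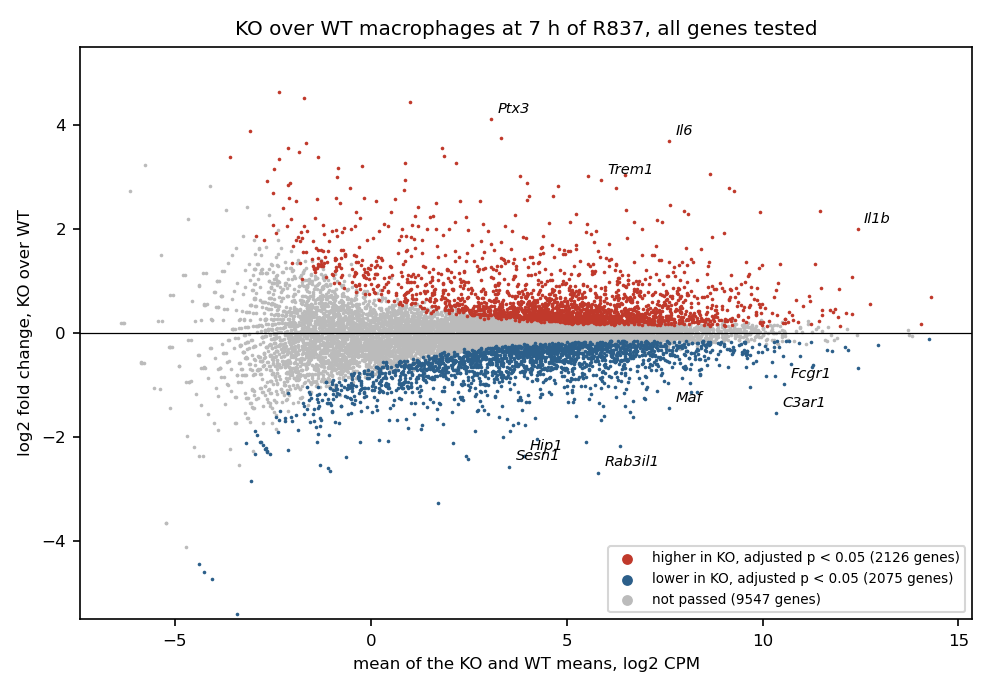
Each point is 1 of 13748 genes; the horizontal axis gives the mean of the KO and WT mean levels (log2 CPM, n = 3 libraries each) and the vertical axis the log2 fold change of KO over WT at 7 h of R837. Red points rose (2126 genes) and blue points fell (2075 genes) at an adjusted p below 0.05, and the named inflammatory genes, Il6, Il1b and Trem1 among them, stand high above the grey genes that did not pass.

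Cytokines, neutrophil chemokines and coagulation genes were among the largest rises. The 20 genes ranked highest, by a rule on fold, level and non-overlap, ran from Ptx3, a soluble pattern-recognition pentraxin, to Slc7a11, the cystine and glutamate exchanger. Ptx3 (chromosome 3, 66219910 to 66225805, plus strand) had 14.8, 16.5 and 16.1 CPM in the KO libraries and 0.680, 0.932 and 1.13 CPM in the WT libraries, a 17.3-fold difference. Tnfsf15, a TNF superfamily ligand, was 13.5-fold higher. Ddit4, the mTORC1 inhibitor also called REDD1, had 77.6, 86.4 and 82.9 CPM in the KO libraries and 8.38, 11.4 and 10.7 CPM in the WT libraries, a difference of 8.10-fold. In each of these the lowest KO library was above the highest WT library. The rule required such a separation of every gene ranked highest or lowest, so for these genes it is a description. The least certain of the 20 was Mmp3, with an adjusted p of 8.9e-12, and of the 20 ranked lowest Etv5, with 3.4e-12. Among the same 20 were Inhba, which encodes the activin A subunit, at 3.03 log2, Dgat2, a triglyceride-synthesis enzyme, at 2.79, Mmp3, a matrix metalloprotease, at 2.53, Gfi1, a transcriptional repressor, at 2.56, and Rnd1, an atypical small GTPase, at 2.36. U90926 and D16Ertd472e, which the files name only so, were at 2.83 and 2.63.

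The CXC chemokines listed as attracting neutrophils, most of which act on the receptor CXCR2, split into a strongly raised trio and a few others. Of 6 tested members, 3 rose and 1 fell, and the median was 1.75 log2 against -0.01 over all genes. Cxcl1 (chromosome 5, 90891241 to 90893115, plus strand) had 1093, 1055 and 1062 CPM in the KO libraries and 152, 162 and 169 CPM in the WT libraries. Cxcl2 had 1637, 1615 and 1633 CPM in the KO libraries and 311, 325 and 334 CPM in the WT libraries. Cxcl3 had 164, 154 and 160.4 CPM in the KO libraries and 19.1, 18.7 and 20.3 CPM in the WT libraries. All 3 were separated without overlap, at 6.64-fold, 5.04-fold and 8.25-fold, while Pf4, a platelet-type chemokine that macrophages also make and that is not counted among the CXCR2 ligands, fell by 0.41 on the log2 scale. Cxcl5 had 0.418 ± 0.198 CPM in KO against 0.181 ± 0.0451 CPM in WT and Ppbp 5.05 ± 0.555 CPM in KO against 4.48 ± 0.443 CPM in WT, and neither passed. The promoters of Cxcl1, Cxcl3 and Il6 are shown because they hold the kappaB motif, the binding letters of NF-kappaB, within 250 bases before to 50 after the start site. They come from RefSeq for GRCm38.p6, 5′ to 3′ on the gene's strand, in lower case with the motif in capitals.

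Cxcl1 promoter, chr5:90890995-90891294, + strand: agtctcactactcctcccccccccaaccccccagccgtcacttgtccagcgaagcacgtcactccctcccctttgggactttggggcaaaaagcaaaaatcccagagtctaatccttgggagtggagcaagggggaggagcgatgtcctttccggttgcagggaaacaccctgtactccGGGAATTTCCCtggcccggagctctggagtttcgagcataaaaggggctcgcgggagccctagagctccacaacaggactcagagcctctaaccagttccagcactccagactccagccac
Cxcl3 promoter, chr5:90785851-90786150, + strand: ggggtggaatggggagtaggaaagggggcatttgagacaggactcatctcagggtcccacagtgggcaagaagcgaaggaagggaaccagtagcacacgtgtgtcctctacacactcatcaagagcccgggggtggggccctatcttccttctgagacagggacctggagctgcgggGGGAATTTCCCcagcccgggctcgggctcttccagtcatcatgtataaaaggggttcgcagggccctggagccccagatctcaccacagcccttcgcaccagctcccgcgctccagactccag
Il6 promoter, chr5:30012864-30013163, + strand: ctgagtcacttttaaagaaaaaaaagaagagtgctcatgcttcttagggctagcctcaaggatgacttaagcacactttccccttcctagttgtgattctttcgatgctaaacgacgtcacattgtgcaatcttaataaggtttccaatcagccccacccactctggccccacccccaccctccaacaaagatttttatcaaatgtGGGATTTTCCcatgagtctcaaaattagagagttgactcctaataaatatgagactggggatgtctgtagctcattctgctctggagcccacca

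The motif was searched on both strands as the kappaB consensus, and a promoter with overlapping matches counts once. It stood in 1480 of 32851 promoters in the table (4.51%). The other counts are by gene, and a gene with several promoters counts if any of them holds the motif. By gene it stood in 609 of 9638 tested genes with a promoter (6.32%). Among genes with a promoter that rose at least 2-fold it stood in 34 of 276 (12.3%), and among those that fell at least 2-fold in 9 of 205 (4.39%). Among the 20 genes ranked highest, 16 had a promoter in the table and 5 held it, namely Cxcl1, Cxcl3, Il6, Nr4a1 and Ptx3. In Cxcl1 the pair of matches began at -71 and -70 from the start site, in Cxcl3 at -73 and -72, and in Il6 at -44. A match is a description of letters in the window.

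The IL-6 family and colony-stimulating factors drive acute-phase responses and the growth of neutrophils and macrophages. Their list, which also holds the receptor genes Il6ra, Il6st, Osmr and Lifr, mostly rose. Of its 11 tested members 8 rose and 1 fell, with a median of 1.28 log2. Il6 (chromosome 5, 30013114 to 30019981, plus strand) had 361, 362 and 370.5 CPM in the KO libraries and 27.2, 28.4 and 29.1 CPM in the WT libraries. The highest WT library lay below every KO library, and the difference was 12.9-fold, with an adjusted p of 3.3e-25. Csf3, the granulocyte colony-stimulating factor, had 327, 328 and 361 CPM in the KO libraries and 58.04, 60.2 and 65.5 CPM in the WT libraries, again without overlap. Lif, an IL-6 family cytokine, was at 3.80 ± 0.151 CPM in KO against 0.174 ± 0.0733 CPM in WT, a log2 fold change of 4.43 ± 0.41. Osm, oncostatin M, rose by 1.23 and Clcf1 by 1.79, whereas Il6ra, the receptor for IL-6, fell by 0.69. Under ribosomal scaling 5 of the 11 passed as higher.

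Cytokines that direct T cells rose as a family. All 5 tested IL-12 family members rose, with a median of 2.13 log2. Il12b, the shared p40 subunit of IL-12 and IL-23, had 787, 828 and 846 CPM in the KO libraries and 204, 210.2 and 233 CPM in the WT libraries. Il27, whose protein pairs with the product of Ebi3, had 172 ± 9.10 CPM in KO against 39.2 ± 2.31 CPM in WT, and Ebi3 396 ± 7.05 CPM in KO against 248 ± 2.19 CPM in WT. Il12a and Il23a were near the detection limit, at 1.21 ± 0.269 CPM in KO against 0.169 ± 0.103 CPM in WT and 0.971 ± 0.0931 CPM in KO against 0.120 ± 0.0833 CPM in WT. Among IL-10 family members, their receptors and the transcription factor gene Stat3, 5 of 6 tested rose and 1 fell. Il10, the main anti-inflammatory cytokine, had 260.5, 242 and 234 CPM in the KO libraries and 97.5, 90.03 and 92.5 CPM in the WT libraries, and Il19, a relative of IL-10, was 2.82-fold higher, whereas the receptor chain Il10rb fell by 0.23. The KO libraries of Il10 all exceeded the WT libraries.

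IL-1 family genes rose, both the agonists and their inhibitor. Of 10 tested, 7 rose, with a median of 0.52 log2. Il1a, the alarmin, had 728, 741 and 687 CPM in the KO libraries and 92.1, 82.2 and 85.5 CPM in the WT libraries. Il1b had 8684, 8927 and 8816 CPM in the KO libraries and 2166, 2235 and 2225 CPM in the WT libraries, and the groups did not overlap at either gene. Il1rn, which encodes the receptor antagonist, rose by 0.57 and Il1f9, an IL-36 agonist, by 1.39. The difference for Il1b was 3.99-fold. For Il1rn it was 1.48-fold. In the TNF superfamily, 6 of 15 rose and 2 fell. Tnf had 1395, 1324 and 1348 CPM in the KO libraries and 583, 550.5 and 584 CPM in the WT libraries. Tnfsf9, the 4-1BB ligand, rose by 1.30, Tnfsf11, RANKL, by 2.59 from a low level, and Tnfsf10, TRAIL, fell by 0.76.

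**Figure D2:**
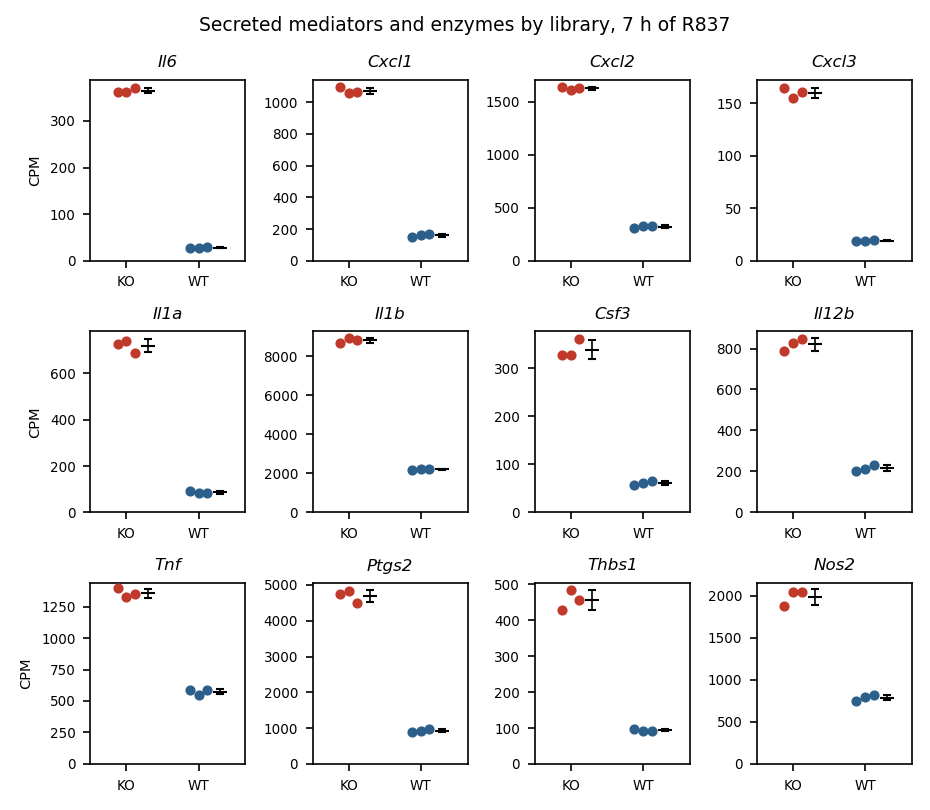
Levels in CPM on linear axes from 0 for 12 mediators and enzymes at 7 h of R837; each red point is 1 KO library, each blue point 1 WT library, and the black bar with whiskers is the mean ± SD of n = 3. In each panel every KO library lies above every WT library.

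Monocyte-attracting and other CC chemokines split by gene. Of 14 tested, 5 rose and 4 fell, or 5 and 5 under ribosomal scaling. Ccl3 had 3695, 3597 and 3762 CPM in the KO libraries and 1482, 1443 and 1463 CPM in the WT libraries, and Ccl4 rose by 0.62 log2 and Ccl5 by 0.95. Ccl2, the main monocyte attractant, had 599, 568 and 598 CPM in the KO libraries and 909.8, 931 and 953 CPM in the WT libraries, and Ccl7 had 946, 904 and 934 CPM in the KO libraries and 1644, 1625 and 1672 CPM in the WT libraries. Both of these were lower in KO with no overlap between the groups, falling by 0.66 and 0.83 log2, while Ccl3 was higher with no overlap. Ccl6 fell by 0.58, and Ccl12, Ccl8 and Ccl9, at -0.30, 0.03 and 0.06, did not pass. The CXCR3 ligands Cxcl9 and Cxcl10 rose by 0.55 and 0.52, while Cxcl11, at 2.87 ± 0.203 CPM in KO against 2.29 ± 0.428 CPM in WT, did not pass.

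Acute-phase, pentraxin and complement genes rose in 13 of 19 tested cases and fell in 2, or 12 and 1 under ribosomal scaling, with a median of 1.10. Hp, haptoglobin, had 1446 ± 52.6 CPM in KO against 582 ± 26.1 CPM in WT, Lcn2, the iron-binding protein lipocalin 2, 1110.0 ± 28.00 CPM in KO against 505 ± 18.7 CPM in WT, and C3 806 ± 24.1 CPM in KO against 371 ± 5.38 CPM in WT. Cfb, complement factor B, rose by 1.70, and Slpi, a secreted protease inhibitor, by 1.46. C1qb, part of the first complement component, had 3723 ± 98.1 CPM in KO against 3951 ± 44.9 CPM in WT and did not pass. Saa1 rose by 1.38, but its reads can be shared with the near-identical Saa2, so its level is uncertain.

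Coagulation and matrix genes changed in both directions. Of 16 coagulation genes, 8 rose and 4 fell. F3, tissue factor, which starts the clotting cascade, had 26.6, 29.3 and 28.00 CPM in the KO libraries and 3.98, 3.46 and 3.92 CPM in the WT libraries, a 7.38-fold difference without overlap. Thbs1, thrombospondin 1, had 456 ± 27.4 CPM in KO against 93.6 ± 2.43 CPM in WT. Thbd, thrombomodulin, the endothelial and monocyte anticoagulant receptor, had 1.96, 1.51 and 1.76 CPM in the KO libraries and 8.68, 9.35 and 9.24 CPM in the WT libraries, and Plau, the urokinase gene, fell by 1.24. The KO libraries of Thbd all lay below the WT libraries. Plaur, the urokinase receptor, rose by 1.36. Fibroblasts also make several of these proteins, and the fibroblast markers were higher in KO, with Pdgfrb at 8.98 ± 1.07 CPM in KO against 2.26 ± 0.341 CPM in WT and Col1a1 at 4.57 ± 0.413 CPM in KO against 2.85 ± 0.169 CPM in WT; their part in these results was not tested. Among matrix proteases and inhibitors 8 of 16 rose and 4 fell, with Mmp9 and Mmp14 higher at 0.96 and 0.69 and Mmp12 and Adam8 lower by 0.43 and 0.82.

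AU-rich elements in 3′ UTRs are docking letters for proteins such as tristetraprolin that shorten mRNA life, and are common in cytokine transcripts. Searched as the nonamer TTATTTATT in GENCODE M21 3′ UTRs (GRCm38), the element stood in 51 of 359 genes that rose at least 2-fold (14.2%), in 13 of 254 that fell at least 2-fold (5.12%) and in 7.21% of 11611 tested genes with a 3′ UTR. The median 3′ UTR held 1072 bases in the genes that rose, 1168 in those that fell and 996 in all tested. Within UTRs of at least 1609 bases it stood in 30 of 128 genes that rose (23.4%), 9 of 94 that fell (9.57%) and 532 of 3867 tested (13.8%). It occurs on both sides of the response, as the sites below show, where capitals mark the nonamer in 30 bases of the sense strand.

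Cxcl1, chr5:90892615-90892644, + strand, rose in KO: atttatgtatTTATTTATTccacaaagtgt
Cxcl3, chr5:90787867-90787896, + strand, rose in KO: ttatcagttgTTATTTATTgaaatggtctt
Inhba, chr13:16029046-16029075, + strand, rose in KO: cttatatttaTTATTTATTggaatcaatct
Thbd, chr2:148404536-148404565, - strand, fell in KO: ttgtacatatTTATTTATTggagtttcgct
Speg, chr1:75432138-75432167, + strand, fell in KO: ccatttgtatTTATTTATTTATTgcctttt
Fgd4, chr16:16419196-16419225, - strand, fell in KO: ttttttagatTTATTTATTttatgtatatg

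Feedback genes of the NF-kappaB pathway rose together with the mediators. All 11 tested NF-kappaB subunits and inhibitors rose, or 10 of 11 under ribosomal scaling, with a median of 0.74 log2. Nfkbie, an IkappaB family inhibitor, had 236, 240.5 and 236 CPM in the KO libraries and 91.9, 88.3 and 87.9 CPM in the WT libraries. Nfkb2, the p100 precursor of p52, had 328, 326 and 344 CPM in the KO libraries and 131, 143 and 128 CPM in the WT libraries. Groups did not overlap for either gene. Nfkbia, the fast-acting IkappaB, rose by 0.48, Nfkb1 by 0.71, Rel by 0.63 and Relb by 0.75. Tnfaip3, which encodes the ubiquitin-editing inhibitor A20, had 1106, 1120.0 and 1106 CPM in the KO libraries and 433, 426 and 427 CPM in the WT libraries, and 9 of 12 genes of its list rose. MAP kinase phosphatases rose in 7 of 10 cases, with Dusp16 at 1.30, Dusp2 at 1.17 and Dusp1 at 0.66. Socs1 and Socs3, inhibitors of cytokine receptor signalling, rose by 1.84 and 0.69. Of 12 genes of the IKK and linear ubiquitin complexes, which act upstream of these, 5 rose and 1 fell under TMM scaling, and 2 rose and 1 fell under ribosomal scaling. Tank, Ikbkb, Spata2, Chuk and Tbk1 rose, with Ikbkb at 0.45 and Tank at 0.55, Otulin fell by 0.33, and the kinase gene Ikbke had 206 ± 5.90 CPM in KO against 213 ± 7.56 CPM in WT and did not pass.

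Genes of proteins that act on mRNA life and early transcription factors also shifted. Of 16 tested genes of the first kind, not all of which destabilise mRNA, 9 rose and 3 fell. Under ribosomal scaling 6 rose and 1 fell, and with the 6 compared libraries alone 13 rose and 3 fell. Elavl1, Arid5a, Pcbp1 and Cpeb4 were on this list beside the destabilising genes. Zfp36, which encodes tristetraprolin, rose by 0.47 and Zc3h12a, Regnase-1, by 0.67, while its relative Zc3h12d fell by 1.16. Among AP-1 and related factors, Fosl1, Fosl2 and Junb rose by 2.25, 1.67 and 0.89, and Atf3, Jun and Batf3 fell by 0.79, 0.45 and 1.06. Nr4a1, an orphan nuclear receptor made within minutes of many stimuli, had 27.4, 30.7 and 26.9 CPM in the KO libraries and 4.63, 4.54 and 4.61 CPM in the WT libraries. Egr1, an immediate early gene, rose by 1.60, and Klf10 fell by 1.18.

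Factors that give macrophages their tissue and maturation programmes moved in both directions. Of 20 macrophage lineage factors 7 rose and 9 fell. Maf (chromosome 8, 115682942 to 115707794, minus strand), a factor of mature macrophages, had 107, 113 and 95.04 CPM in the KO libraries and 289, 288 and 279.6 CPM in the WT libraries. Pparg, a lipid-sensing nuclear receptor, had 8.18 ± 1.12 CPM in KO against 19.7 ± 0.814 CPM in WT. The groups did not overlap for either gene. Mef2c and Bhlhe41 fell by 1.32 and 1.17 from low levels. Irf5, an interferon regulatory factor that acts after TLR7, had 53.6, 48.1 and 49.5 CPM in the KO libraries and 156, 140.5 and 138 CPM in the WT libraries, a fall of 1.52 log2. Reads from Irf5 and its neighbour Tnpo3 cannot be told apart without strand over 14.1% of the Irf5 exons. The genes that rose in this list were Bhlhe40, Id3, Hif1a, Cebpb, Cebpd, Tfec and Mef2a, with Hif1a at 0.95 and Cebpb at 0.76. Irf8 fell by 0.35, whereas Irf1 rose by 0.41 and Irf7 had 884 ± 24.8 CPM in KO against 840.2 ± 30.8 CPM in WT and did not pass.

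More Toll-like receptors, the sensors of microbial products, fell than rose. Of 14 Toll-like receptors and chaperones, 2 rose and 7 fell. Tlr7, the receptor for R837 itself, had 211 ± 3.91 CPM in KO against 209 ± 5.63 CPM in WT and did not pass. Tlr13, a sensor of bacterial ribosomal RNA, had 47.9, 42.4 and 46.5 CPM in the KO libraries and 117, 105 and 100.4 CPM in the WT libraries. Cd180, an inhibitory relative of TLR4, had 31.7, 31.2 and 34.2 CPM in the KO libraries and 89.4, 77.7 and 78.1 CPM in the WT libraries. Both groups of values were separated without overlap, and Tlr9, Tlr4 and Tlr3 fell by 1.42, 0.68 and 0.51. Cd14, the co-receptor that rose, was at 5058 ± 119 CPM in KO against 2816 ± 26.1 CPM in WT, and Tlr2 rose by 0.51. Of 16 MyD88, IRAK and TRAF6 signalling genes tested, 4 rose and 3 fell, or 3 and 1 under ribosomal scaling, with a median of 0.08 log2. The lowest of them was Slc15a4, a lysosomal transporter that TLR7 signalling needs, which fell by 0.86. More interferon-stimulated genes, which carry antiviral functions, fell than rose. Of 30 tested, 3 rose and 8 fell, beside 15.5% and 15.1% of all genes tested. Their median was -0.08 log2, and 0 fell at least 2-fold. Ifit2 had 192 ± 7.57 CPM in KO against 373 ± 25.1 CPM in WT and Cmpk2 175 ± 6.36 CPM in KO against 317 ± 9.78 CPM in WT, falling by 0.96 and 0.86, while Gbp5 rose by 0.73. Ifnb1 was barely detected, at 0.348 ± 0.0526 CPM in KO against 0.460 ± 0.109 CPM in WT, and did not pass.

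Surface receptors changed in both directions within families. Trem1 (chromosome 17, 48232768 to 48246924, plus strand), an amplifier of TLR signalling, had 101, 104 and 106 CPM in the KO libraries and 12.5, 13.4 and 14.7 CPM in the WT libraries. Its KO libraries were all far above its WT libraries. Among 21 TREM, C-type lectin and scavenger genes 6 rose and 7 fell, with Clec4e, Mincle, at 1.07, Mrc1, the mannose receptor, lower by 0.65, Cd36 by 0.62 and Trem2 by 0.35. Fc receptors were lower in KO in 4 of 8 cases. Fcgr1, the high-affinity IgG receptor, had 1044, 986 and 982 CPM in the KO libraries and 2060.0, 1895 and 1998 CPM in the WT libraries, and Fcgr3 fell by 0.60, whereas the inhibitory Fcgr2b rose by 0.40. The KO libraries of Fcgr1 did not overlap the WT libraries. Among chemoattractant receptors, C3ar1 (chromosome 6, 122847138 to 122856161, minus strand), the receptor for complement C3a, had 689.8, 651 and 658 CPM in the KO libraries and 2022, 1887 and 1888 CPM in the WT libraries, and Ccr1 and Ccr3 fell by 0.93 and 1.10. Ccrl2, a decoy-like chemerin receptor, had 252, 259.6 and 264 CPM in the KO libraries and 56.3, 54.8 and 60.04 CPM in the WT libraries, and Fpr1 and Ptafr rose by 0.87 and 1.03. Il21r fell by 1.59 and Cd200r1, an inhibitory receptor, by 1.05. MHC class II genes rose in 5 of 12 cases, beside the dendritic cell marker sums given above, whose part was not tested, and were led by H2-Ab1 at 128 ± 4.97 CPM in KO against 62.9 ± 3.73 CPM in WT, and Cd274, PD-L1, had 1086 ± 31.6 CPM in KO against 688 ± 2.00 CPM in WT.

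**Figure D3:**
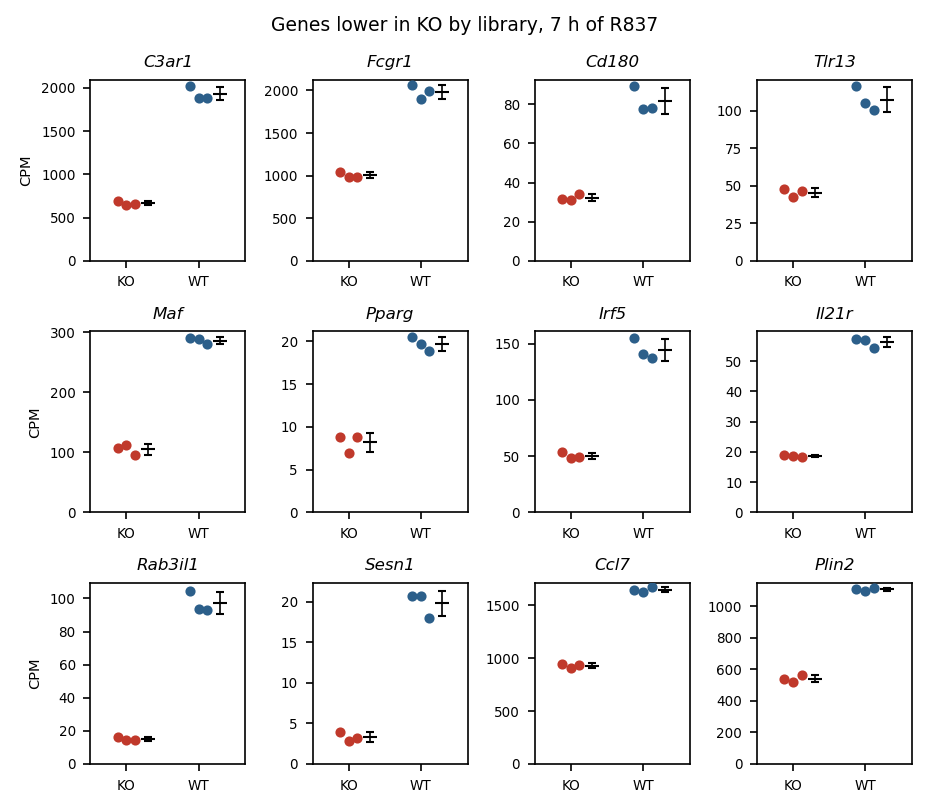
Levels in CPM on linear axes from 0 for 12 genes that fell in KO at 7 h of R837; each red point is 1 KO library, each blue point 1 WT library, and the black bar with whiskers is the mean ± SD of n = 3. In each panel every KO library lies below every WT library.

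Enzymes of nitric oxide, arginine and itaconate chemistry rose in 11 of 15 cases, and only Arg1 fell. Nos2, inducible nitric oxide synthase, had 1874, 2039 and 2046 CPM in the KO libraries and 753, 792 and 818 CPM in the WT libraries. Acod1, which makes itaconate, rose by 0.86, and Arg2 by 1.96. Arg1, which competes for the same substrate and marks alternatively activated macrophages, had 20.7, 20.7 and 19.7 CPM in the KO libraries and 49.1, 48.4 and 55.03 CPM in the WT libraries. The groups did not overlap for either Nos2 or Arg1. In the prostaglandin pathway Ptgs2, cyclooxygenase 2, had 4742, 4825 and 4505 CPM in the KO libraries and 897, 921 and 965 CPM in the WT libraries, and Ptges, the terminal PGE2 synthase, had 1653 ± 35.3 CPM in KO against 928 ± 30.9 CPM in WT. The PGE2 receptor gene Ptger4 fell by 1.73, with reads of Ttc33 shared over 16.5% of its exons. Pla2g7 rose by 1.13, and the prostaglandin D2 synthase Hpgds fell by 0.55. Of all 17 prostaglandin and leukotriene genes tested, 6 rose and 5 fell, or 6 and 4 under ribosomal scaling, with a median of 0.02 log2.

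Cholesterol genes fell and other lipid genes split. Of 23 cholesterol synthesis and uptake genes 20 fell, with a median of -0.49 log2, and 0 rose, whether by edgeR, by DESeq2 or at an unadjusted p below 0.05. Under ribosomal scaling 18 fell and 0 rose. Sqle, squalene epoxidase, had 83.7, 83.95 and 76.7 CPM in the KO libraries and 144, 154 and 144 CPM in the WT libraries, and Msmo1 had 253 ± 15.1 CPM in KO against 417 ± 13.1 CPM in WT. No member reached a 2-fold fall, and Srebf2, the controlling transcription factor, had 159.9 ± 2.06 CPM in KO against 160.3 ± 5.85 CPM in WT. Fdps and Idi1 have near-identical copies elsewhere and were almost uncounted, so their values are uncertain. Among 20 LXR targets and lipid-handling genes 7 rose and 9 fell, or 4 and 8 under ribosomal scaling. Plin2, a lipid droplet coat gene, had 536, 521 and 564 CPM in the KO libraries and 1111, 1093 and 1113 CPM in the WT libraries, Abcg1, a cholesterol exporter, fell by 1.17, and Abca1, its partner, rose by 0.59. Lpl, lipoprotein lipase, fell by 0.65.

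Energy and stress genes changed in both directions. Glycolysis and HIF-1 targets rose in 7 of 21 cases and fell in 5, or 6 and 2 under ribosomal scaling, with Slc16a1, a lactate transporter, at 1.10 and Pfkfb3 at 0.89. Slc7a11, the cystine importer, had 426 ± 10.8 CPM in KO against 84.1 ± 9.55 CPM in WT, and Sesn1, an mTORC1 inhibitor of the sestrin family, had 3.32 ± 0.619 CPM in KO against 19.8 ± 1.56 CPM in WT. Antioxidant genes rose in 9 of 16 cases and fell in 4, with Mt2 higher at 1.27 and Txnrd1 at 0.86, whereas Hmox1 fell by 0.44. Few nuclear-encoded respiratory chain genes passed, with 1 rising and 3 falling of 25, and lysosomal genes fell in 7 of 24 cases by at most 0.62, at Atp6v0d2. Of 42 ribosomal and elongation genes 0 passed by edgeR under TMM scaling and 0 by DESeq2, and 2 were lower at an unadjusted p below 0.05. Under RLE or ribosomal scaling 1 passed as lower, and with the 6 compared libraries alone 3 passed as higher and 4 as lower. Ribosomal scaling was set from the summed counts of this list, so little change under it was built in. Rps14 was at 199.7 ± 12.6 CPM in KO against 216 ± 1.84 CPM in WT.

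More cell cycle genes fell than rose. Of 31 tested, 4 rose and 17 fell, with a median of -0.39 log2. Ccnd1, cyclin D1, had 4.52, 3.95 and 3.88 CPM in the KO libraries and 17.03, 15.8 and 16.9 CPM in the WT libraries, and its exons overlap LTO1 over 23.4%, so those reads cannot be assigned to a strand. Aurka, Plk1 and Bub1, mitotic genes, fell by 0.73, 0.78 and 0.79, while the cell cycle inhibitors Cdkn1a and Cdkn1b rose by 0.70 and 0.87. Mki67, a proliferation marker, also rose, by 1.38, with 16.5 ± 2.46 CPM in KO against 6.28 ± 0.527 CPM in WT. Of 22 Rab, sorting and endocytic trafficking genes tested, 9 rose and 6 fell, with a median of 0.07 log2. Among those that fell, Rab3il1 (chromosome 19, 10001669 to 10038380, plus strand), an activator of Rab proteins, had 16.2, 14.5 and 14.5 CPM in the KO libraries and 105, 93.4 and 92.9 CPM in the WT libraries. Rab7b, a late endosomal Rab, had 30.8 ± 1.87 CPM in KO against 92.7 ± 5.34 CPM in WT. Hip1, an endocytic adaptor, had 4.87 ± 0.336 CPM in KO against 25.03 ± 0.962 CPM in WT. All 3 fell without overlap between groups. Other genes among the 20 lowest were Cd300lb, a CD300 receptor, at -2.17, Kcnk13, a potassium channel, at -2.10, Cdk20 at -2.05, Snx24, a sorting nexin, at -2.42, Dhrs9 and Dhrs3, retinoid enzymes, at -1.88 and -1.62, and Tsc22d3, the glucocorticoid-induced GILZ, at -1.61. Nptx1, Mtss1, Speg, Etv5 and Fgd4 were at -1.88, -1.76, -1.76, -1.66 and -1.63.

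**Figure D4:**
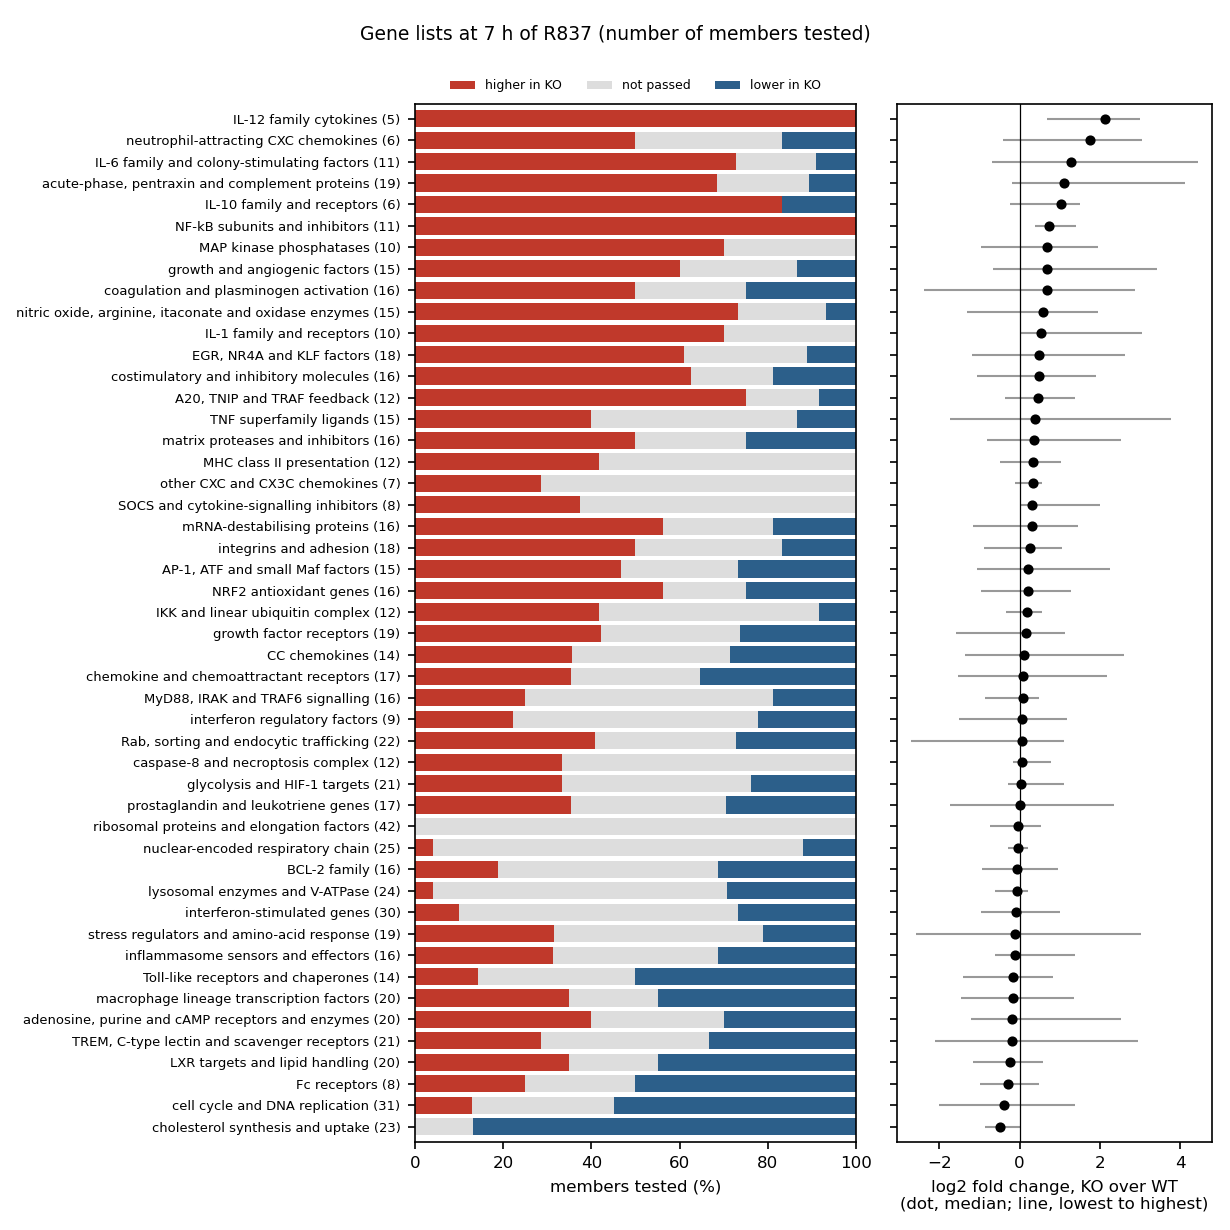
Each row is a gene list at 7 h of R837, with the number of members tested in brackets; the left panel gives the percentage of tested members that rose (red), did not pass (grey) or fell (blue) in KO, and the right panel the median (dot) and range (line) of the log2 fold changes. The IL-12 family and the NF-kappaB subunits and inhibitors are all red, and 20 of 23 cholesterol genes are blue.

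The genotype effect at 7 h of R837 differed from that at 3 h at 1690 of the genes tested. At 3 h, 2087 genes (15.2%) rose and 1731 (12.6%) fell in KO. A test of the difference between the genotype effects at 7 h and at 3 h, in one edgeR model over all libraries, called 749 genes (5.45%) as more positive at 7 h and 941 (6.84%) as more negative. Scaling to ribosomal and elongation genes moves the median of that difference by -0.205 log2 and of the 3 h comparison by 0.201, against -0.004 at 7 h. Of the 2126 genes that rose at 7 h, 1006 had risen at 3 h, 48 had fallen and 1072 had not passed. Of the 2075 that fell at 7 h, 771 had fallen at 3 h, 90 had risen and 1214 had not passed. Trem1 had 10.1, 8.65 and 11.2 CPM in the KO libraries and 10.99, 10.5 and 9.95 CPM in the WT libraries at 3 h, when the groups overlapped, against the separation at 7 h given above, and the difference was 3.02 ± 0.15 log2. Rab3il1 had 57.6, 59.5 and 53.3 CPM in the KO libraries and 64.9, 65.2 and 61.9 CPM in the WT libraries at 3 h, and the difference was -2.51 ± 0.12 log2. Irf5 and Rasgef1b changed sign, at 0.23 and 0.48 log2 at 3 h against -1.52 and -1.66 at 7 h. Il6 was already higher at 3 h by 1.38 log2, and its difference was 2.31 ± 0.16 log2. NF-kappaB subunits and inhibitors rose at both times, 11 of 11 at each, and 7 of them had a larger effect at 7 h under TMM scaling but 1 under ribosomal scaling.

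**Figure D5:**
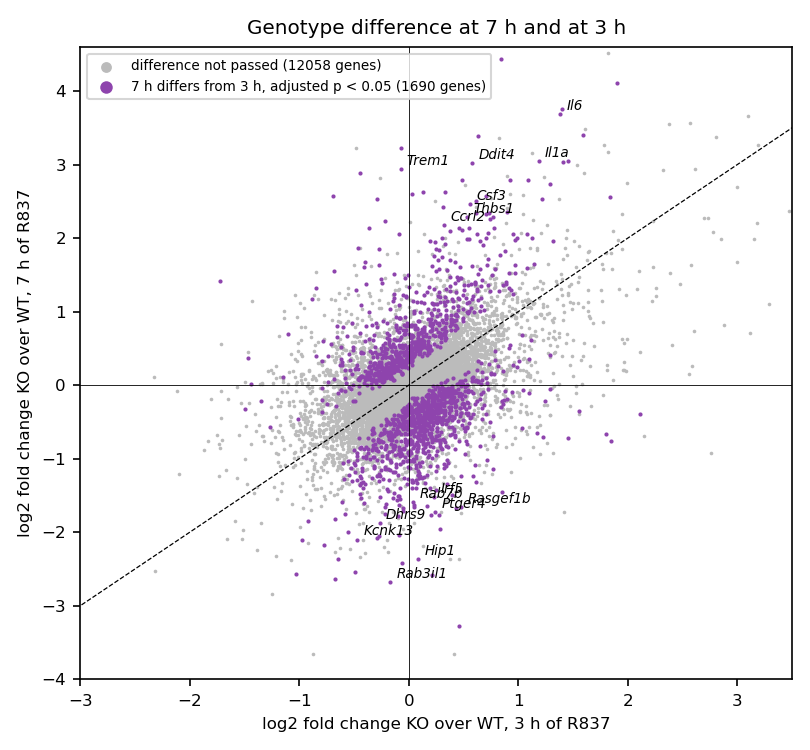
Each point is 1 gene; the horizontal axis is the log2 fold change of KO over WT at 3 h of R837, the vertical axis that at 7 h, and the dashed line marks equal values. Purple genes (1690) passed the test of the difference between the times, Trem1 lying near 0 on the 3 h axis and at 2.94 on the 7 h axis, and 9 genes lie beyond the axes.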

How the data were processed

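RNA was sequenced from bone marrow-derived macrophages with a TruSeq RNA v2 kit, single-end 50-base reads, per the labels' protocols; this kit does not mark strand. GSNAP and the build GRCm38 are named in the submitters' processing notes; the counting program, its annotation and its use of strand are not given in the sources used here. In the deposit of the authors, each library had 1 file with a whole-number count and an RPKM per gene identifier. Only the count column entered the tests and the printed levels; the deposited RPKM values were not printed. Of 52636 identifiers, 52489 matched GENCODE M21, and the 147 others held at most 0.0022% of a library.

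Counts of all 36 libraries were fitted by edgeR 4.0.16 in R 4.3.3 (12 groups, TMM scaling, quasi-likelihood test, Benjamini-Hochberg adjustment over 13748 genes that passed edgeR's filter on low counts), and the contrast of KO minus WT at 7 h and its difference from that at 3 h were taken from that fit. The biological coefficient of variation was 7.5%. The fit was tested on simulated counts. A call is an adjusted p below 0.05. Named genes are N4bp1, the 20 with the highest and the 20 with the lowest log2 fold change (mean of at least 5 CPM, groups apart, no predicted genes), list members, and 8 per direction for the difference between times (mean of at least 20 CPM); some of these are not reported here. The members and lists were chosen with earlier results of these data known. Alternatives were RLE scaling, DESeq2 1.42.0, other filters, scaling to ribosomal genes, fewer libraries, stricter thresholds and each library left out. Counting error and PCR duplicates are not separated. With 3 libraries per group, p-values rest on the spread within all 12 groups of the 36 libraries, not on that of the compared libraries alone. The model treats all libraries as independent, and the labels do not say which came from the same mice.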

Additional observations from a re-analysis of the deposited data

Results flagged for a closer look

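At 15 genes the KO minus WT effect at 7 h differed from that at 3 h in the edgeR interaction test, taken from the most positive and the most negative among genes of at least 20 CPM on average. The log2 differences, 7 h minus 3 h with standard errors, were positive for Trem1 (3.02 ± 0.15), Ddit4 (2.44 ± 0.16), Il6 (2.31 ± 0.16), Csf3 (1.91 ± 0.18), Il1a (1.87 ± 0.17), Ccrl2 (1.86 ± 0.11) and Thbs1 (1.75 ± 0.14). They were negative for Rab3il1 (-2.51 ± 0.12), Hip1 (-2.45 ± 0.18), Rasgef1b (-2.14 ± 0.13), Ptger4 (-1.98 ± 0.17), Irf5 (-1.75 ± 0.11), Kcnk13 (-1.63 ± 0.14), Rab7b (-1.63 ± 0.10) and Dhrs9 (-1.61 ± 0.15). All 15 rank by the values that chose them, so their order is a description. At 3 h the genotype effect of Irf5 and of Rasgef1b was positive and at 7 h negative. Reads of Irf5 and Ptger4 overlap those of Tnpo3 and Ttc33, and reads of the 2 genes of each pair cannot be told apart without strand.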

How the results depend on the processing

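No paired analysis was possible because the labels give no replicate numbers that link KO to WT libraries. The 7 h comparison called 4201 genes, and 710 of at least 2-fold (412 higher, 298 lower). Other settings gave 4212 with RLE scaling, 4266 with DESeq2, 3330 with scaling to ribosomal and elongation genes, 3856 with no filter, 4183 at a CPM of at least 1 in 3 libraries, 2971 at an adjusted p below 0.01 and 6167 with the 6 compared libraries alone. Leaving out each library in turn gave between 3429 and 3625 genes (1719 to 1858 higher, 1702 to 1779 lower). The difference between times called 1690 genes, and 1066 at an adjusted p below 0.01 (469 higher, 597 lower). Ribosomal scaling gave 258 higher and 1567 lower, against 749 higher and 941 lower by TMM. Leaving out each library gave between 1289 and 1954 genes (571 to 863 higher, 691 to 1091 lower). Of the named genes, 4 that had not passed changed sign when a library was left out: their log2 fold changes ran between -0.441 and 0.257 for Cd79a, between -0.467 and 1.709 for Ly6g, between -0.025 and 0.026 for Srebf2 and between -0.007 and 0.03 for Tlr7. The call of N4bp1 was lost under ribosomal scaling, where its adjusted p was 0.0803. With the 6 compared libraries alone, 6 interferon-stimulated genes passed as higher and 15 as lower, and 5 and 10 respiratory chain genes. The causes of these changes were not tested. Depth limits genes under about 1 CPM, such as Il12a, Il23a, Ifnb1 and Cd79a.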
